A study of Homo sapiens with 30 samples.

Results

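The 8 genes described here handle vitamin D or respond to it: CYP24A1, CYP27B1, CYP27A1, GC, VDR, RXRA, SLC37A2 and CLMN. They were taken by symbol from the 24462 gene symbols counted in every library, and their levels are given in all 30 libraries. The libraries were made with QuantSeq, in which reads come from the 3′ ends of mRNAs, from Caco2, HCT116 and SW480 cells, 3 lines of human colorectal cancer. There were 10 groups with 3 libraries each. All Caco2 cells carried a retroviral hairpin and were selected with puromycin. In Caco2 the groups were SETDB1-hairpin cells sorted as KRT20-positive, SETDB1-hairpin cells sorted as KRT20-negative, scramble-hairpin cells in differentiation medium, and scramble-hairpin cells in vehicle. Differentiation medium holds troglitazone (10 uM), an agonist of the nuclear receptor PPARG, and 1α,25-dihydroxyvitamin D3 (25 nM), the hormone that binds VDR. It therefore adds the ligand of VDR together with another drug. In HCT116 and in SW480 the groups were SETDB1-hairpin cells sorted as KRT-positive, SETDB1-hairpin cells sorted as KRT-negative, and unsorted cells. SETDB1 encodes a histone methyltransferase that silences chromatin, and KRT20 a keratin of mature gut epithelium. The labels do not give the medium of the SETDB1-hairpin and unsorted cells, nor the hairpin of the unsorted cells, so hairpin, sort and medium cannot be told apart when sorted cells are set against scramble or unsorted cells. Both fractions of a line carried the SETDB1 hairpin. No label says that the replicates were grown separately, and p-values reflect only how far these libraries spread.

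Vitamin D becomes a hormone by hydroxylation, first mainly in the liver, where CYP27A1 is among the enzymes able to do this, and then by CYP27B1, which makes the active form. GC, the vitamin D binding protein secreted by the liver, carries it in plasma. The active hormone binds the receptor VDR, which pairs with RXRA on DNA and switches on target genes, and the gut epithelium is a classic site of this response because calcium uptake depends on it. CYP24A1, the mitochondrial hydroxylase that breaks the hormone down, is itself a direct VDR target and closes a feedback loop. SLC37A2, a transporter of sugar phosphates, and CLMN, a membrane protein with an actin-binding domain, are known as vitamin D-responsive genes in other human cells.

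Levels are given in CPM (each library's counts brought to a common total, with scaling over all 30 libraries). Libraries held 5349737 to 10221854 counts. By these totals alone, before that scaling, 3 counts equal 0.293 to 0.561 CPM, the upper limit for a gene listed at 0 when only counting error is considered. Spearman correlations between replicates across genes were 0.972 to 0.982 in Caco2 groups, 0.868 to 0.907 in HCT116 groups and 0.798 to 0.899 in SW480 groups, and low genes in HCT116 and SW480 could differ widely within a group, as in the 0, 0 and 193 counts of CYP27B1 in HCT116 KRT-positive cells. A level of 0 in those lines is therefore less certain than counting error alone gives. SETDB1, the targeted gene, stood at 20.7 to 27.7 CPM in the 6 SETDB1-hairpin Caco2 libraries, below the 29.8 to 39.8 CPM of the 6 scramble libraries. In HCT116 SETDB1 averaged 16.6 CPM in KRT-positive and 2.7 CPM in KRT-negative cells, against 49.7 CPM in unsorted cells. In SW480 it averaged 3.98 and 13.6 CPM in those fractions, against 28.8 CPM. HCT116 KRT-positive and SW480 KRT-negative libraries overlapped the unsorted libraries of their line, and the other fractions did not. In HCT116 it was called lower in KRT-negative cells against unsorted cells (edgeR adjusted p = 0.0424, lost without KRT-negative replicate 3 at 0.161, unsorted replicate 1 at 0.136 or unsorted replicate 2 at 0.119) and not in KRT-positive cells, and in SW480 it was called in neither fraction. The HCT116 call was also lost with no filter on low counts (0.19), in a fit of only those groups (0.0622) and in 1 fit of all 30 libraries (0.0762). It was lost too with a term for how each library tracked transcript GC content (0.113). The library labelled SW480 SETDB1-hairpin KRT-negative replicate 1 held 37.2 CPM, above the 36.1, 35.4 and 14.9 CPM of unsorted SW480 cells, which goes against its label, and the CYP24A1 and VDR tests and the calls of list genes named below that rest on it are also given without it. KRT20 stood at 27.5 to 40.0 CPM in KRT20-positive and 1.09 to 1.87 CPM in KRT20-negative Caco2 cells, and at 43.9 to 73.1 CPM in KRT-positive and 0 to 0.667 CPM in KRT-negative SW480 cells. Among HCT116 KRT-positive libraries, replicate 3 alone had KRT20 reads, at 5.44 CPM. The keratins KRT8, KRT18 and KRT19 and the adhesion genes EPCAM and CDH1, all epithelial markers, were detected in every group, while the gut marker VIL1 was listed at 0 in every HCT116 library and CDX1 was at or near 0 in all 30 libraries.

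CYP24A1 (chromosome 20, 54153449 to 54173973, minus strand, GRCh38) had the widest range of the 8 genes, with 0.279 to 784 CPM and counts in all 30 libraries. In Caco2 it had 192, 196 and 180 CPM in KRT20-positive SETDB1-hairpin cells, 167, 176 and 125 CPM in KRT20-negative SETDB1-hairpin cells and 207, 200 and 202 CPM in scramble cells in medium, against 1.02, 0.279 and 0.635 CPM in vehicle. The vehicle libraries held 8, 2 and 4 counts of the gene, and every other Caco2 library held at least 125 CPM. Means were 189 ± 8.09, 156 ± 27.5 and 203 ± 3.60 CPM, against 0.645 ± 0.372 CPM in vehicle (SD, n = 3 each).

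**Figure D1:**
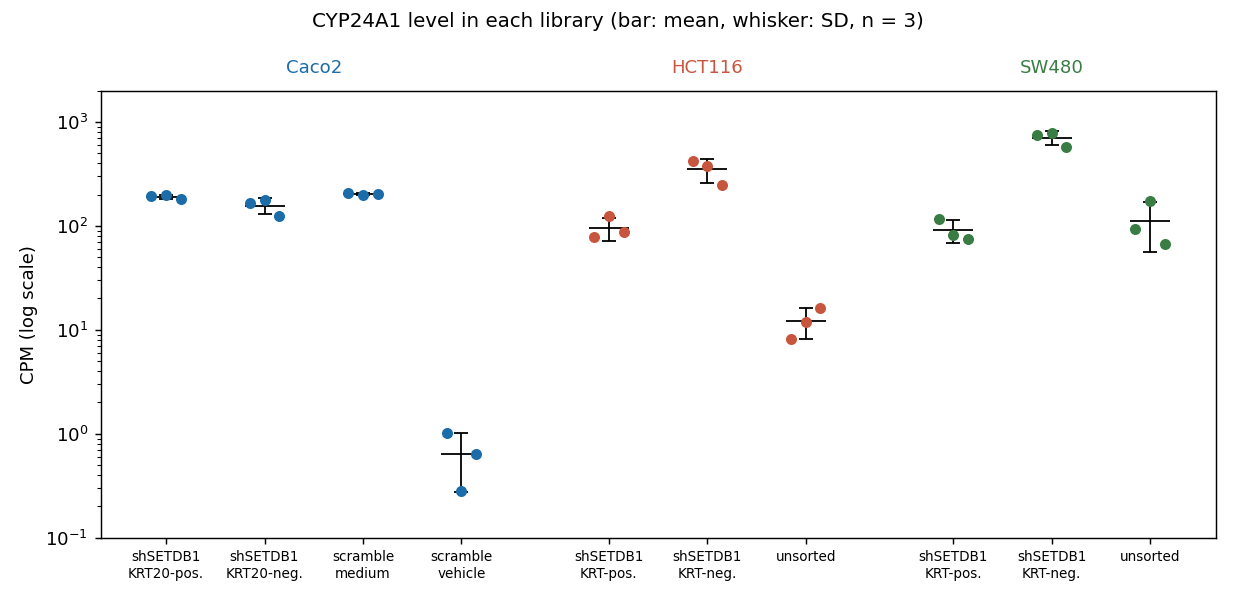
CYP24A1 in CPM (log axis) in each library, by group within cell line; points are libraries, bars means and whiskers SD (n = 3). SW480 and HCT116 KRT-negative cells lie highest, at means of 705 and 351 CPM, and Caco2 vehicle lies lowest, at 0.645 CPM.

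Against vehicle, CYP24A1 rose in all 3 other Caco2 groups. The log2 fold change was 8.11 (SE 0.21) in KRT20-positive cells, with an edgeR quasi-likelihood adjusted p = 3.33e-18. It was 7.81 (SE 0.21, edgeR adjusted p = 6.86e-18) in KRT20-negative cells and 8.22 (SE 0.21, edgeR adjusted p = 1.59e-17) in scramble cells in medium. These 3 comparisons share the vehicle libraries. Set against medium, the KRT20-negative fraction was lower by a small step (mean 156 against 203 CPM, fell by 0.41 on the log2 scale, SE 0.11, edgeR adjusted p = 0.00382). KRT20-negative replicate 3, the lowest of these libraries at 125 CPM, also held 642 CPM of 8 summed fibroblast markers, against at most 59.6 CPM in each Caco2 library of the other groups. Without it the step was still called and smaller, at a log2 fold change of -0.27 with an edgeR adjusted p = 0.00729. The KRT20-positive fraction did not pass the test against medium (log2 -0.11, SE 0.11, edgeR adjusted p = 0.443), although its libraries lay just below those of medium without overlap. Between the fractions, KRT20-positive over KRT20-negative, the log2 fold change was 0.30 (SE 0.11) and missed the threshold (edgeR adjusted p = 0.134). It passed with no filter on low counts (0.0447), with the replicate number as a block (0.0340) and without KRT20-negative replicate 2 (0.0460), so this call depends on the setting.

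In HCT116 and SW480 the KRT-negative fraction, not the KRT-positive fraction, held the most CYP24A1. In HCT116 it had 77.9, 123 and 87.2 CPM in KRT-positive cells, 423, 380 and 249 CPM in KRT-negative cells and 8.16, 11.9 and 16.1 CPM in unsorted cells, and none of the 3 groups overlapped. Against unsorted cells it rose in KRT-positive cells (log2 3.0, SE 0.33, edgeR adjusted p = 4.14e-05) and further in KRT-negative cells (log2 4.87, SE 0.36, edgeR adjusted p = 1.22e-06). KRT-positive cells lay below KRT-negative cells by 1.87 on the log2 scale (log2 -1.87, SE 0.31, edgeR adjusted p = 0.0104). That last call was lost without KRT-negative replicate 2 (edgeR adjusted p = 0.0587), KRT-positive replicate 1 (0.0748) or KRT-positive replicate 3 (0.0778), with values between -2.09 and -1.72.

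In SW480 it had 116, 81.1 and 74.3 CPM in KRT-positive cells, 753, 784 and 578 CPM in KRT-negative cells and 92.4, 175 and 67.4 CPM in unsorted cells. The KRT-negative libraries lay above all 6 others, while KRT-positive and unsorted libraries overlapped. KRT-negative cells rose against unsorted cells (log2 2.62, SE 0.34, edgeR adjusted p = 0.00101). KRT-positive cells lay below KRT-negative cells (log2 -2.90, SE 0.34, edgeR adjusted p = 0.00267), and did not pass against unsorted cells (log2 -0.28, SE 0.32, edgeR adjusted p = 0.785). Without the library that goes against its label, the KRT-negative values were 2.59 against unsorted (edgeR adjusted p = 0.00426) and -2.87 for KRT-positive over KRT-negative (edgeR adjusted p = 0.0106). In both lines libraries differed in how expression tracked the GC content of transcripts, and with that library class as a term the HCT116 values were 3.03 for KRT-positive and 4.86 for KRT-negative over unsorted and -1.83 between fractions, and the SW480 values -0.19, 2.69 and -2.87, with the same calls.

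The step between fractions differed between lines when tested as an interaction. KRT-positive minus KRT-negative was higher in Caco2 than in HCT116 by 2.18 on the log2 scale (SE 0.35, edgeR adjusted p = 0.00241, where 2.37% of tested genes were called) and higher in Caco2 than in SW480 by 3.24 (SE 0.41, edgeR adjusted p = 0.000295, 2.93% called). The same step did not pass between HCT116 and SW480 (1.07, SE 0.46, edgeR adjusted p = 0.505, 0.0539% called). HCT116 exceeded SW480 in KRT-positive minus unsorted by 3.29 (SE 0.47, edgeR adjusted p = 0.000557, 1.08% called) and in KRT-negative minus unsorted by 2.22 (SE 0.47, edgeR adjusted p = 0.0170, 1.03% called). The last was lost without HCT116 unsorted replicate 1 (edgeR adjusted p = 0.0588), SW480 KRT-negative replicate 3 (0.0669) or SW480 unsorted replicate 2 (0.0605). Without SW480 KRT-negative replicate 1, the Caco2 and SW480 difference was 3.16 (edgeR adjusted p = 0.000724), and between HCT116 and SW480 the values were 1.02 for KRT-positive minus KRT-negative (edgeR adjusted p = 0.606) and 2.27 for KRT-negative minus unsorted (edgeR adjusted p = 0.0383). Neither VDR nor RXRA passed in any of the 5 interactions.

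Over all 10 groups the order of CYP24A1 from low to high was Caco2 vehicle, HCT116 unsorted, SW480 KRT-positive, HCT116 KRT-positive, SW480 unsorted, Caco2 KRT20-negative, Caco2 KRT20-positive, Caco2 medium, HCT116 KRT-negative and SW480 KRT-negative. SW480 KRT-positive, HCT116 KRT-positive, SW480 unsorted and Caco2 KRT20-negative cells each overlapped their neighbour in that order, and the other neighbours did not overlap. Unsorted SW480 cells held 112 ± 56.5 CPM and unsorted HCT116 cells 12.1 ± 3.97 CPM (SD, n = 3 each), and the labels do not say whether either received the ligand.

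Of the activating enzymes, CYP27B1 (chromosome 12, 57762334 to 57768986, minus strand, GRCh38) stayed low. In Caco2 it had 9.34, 7.16 and 8.75 CPM in KRT20-positive cells, 5.46, 7.62 and 3.50 CPM in KRT20-negative cells and 8.28, 10.5 and 10.8 CPM in medium, against 4.85, 6.69 and 6.5 CPM in vehicle. Medium lay just above vehicle without overlap and passed narrowly (log2 0.70, SE 0.25, edgeR adjusted p = 0.0439). The call was lost with library totals as the only scaling (0.0618), in DESeq2 (0.0504) and without 5 of the 6 libraries in turn (up to 0.190), every one except medium replicate 1. KRT20-negative cells lay below medium (fell by 0.87 on the log2 scale, SE 0.24, edgeR adjusted p = 0.00645), and KRT20-positive cells passed neither against vehicle (edgeR adjusted p = 0.152) nor against medium (0.465). In HCT116 and SW480 it was listed between 0 and 18.8 CPM with no call, for example 0, 0 and 193 counts in the 3 HCT116 KRT-positive libraries.

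CYP27A1 (chromosome 2, 218781749 to 218815293, plus strand, GRCh38), a mitochondrial sterol hydroxylase, went down in medium and up in the SETDB1-hairpin fractions. It had 19.0, 22.3 and 21.5 CPM in KRT20-positive cells, 19.5, 19.2 and 18.3 CPM in KRT20-negative cells and 6.92, 7.66 and 8.40 CPM in medium, against 10.6, 15.6 and 14.3 CPM in vehicle. Both fractions lay above all vehicle libraries and medium below them. Against vehicle the log2 fold change was 0.61 in KRT20-positive cells (SE 0.16, edgeR adjusted p = 0.00391), 0.45 in KRT20-negative cells (SE 0.16, edgeR adjusted p = 0.0290) and -0.83 in medium (SE 0.18, edgeR adjusted p = 0.00146). The KRT20-negative call was lost in a fit of only those groups (0.0635) and without vehicle replicate 1 (0.197), KRT20-negative replicate 1 (0.0708) or KRT20-negative replicate 2 (0.0629). Against medium the fractions rose by 1.44 and 1.28 on the log2 scale (SE 0.17 each, edgeR adjusted p = 4.81e-07 in KRT20-positive and 2.28e-06 in KRT20-negative cells). It was listed at 0 in 8 of 9 HCT116 libraries. In SW480 it had 4.94, 0 and 0 CPM in KRT-positive cells and 0 in all 3 KRT-negative libraries, against 11.5, 14.3 and 12.3 CPM in unsorted cells. Those groups did not overlap, yet neither fraction passed against unsorted cells in the fit of the line (edgeR adjusted p = 0.668 for KRT-positive and 0.206 for KRT-negative cells). KRT-negative against unsorted was called in DESeq2 (0.00733), in a fit of only those groups (edgeR adjusted p = 0.0407) and in 1 fit of all 30 libraries (edgeR adjusted p = 0.0176). That last fit lost the CYP27A1 calls of Caco2 against vehicle and against medium.

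Promoter windows from RefSeq (GRCh38.p14, the 250 bases before a start, plus strand) are shown for CYP27A1 and for RXRA, the partner of VDR. Capitals mark hexamers of the kind VDR and RXRA bind (AGGTCA and its variants GGGTCA, then AGTTCA, and also GGTTCA, on either strand). These genes are shown because the tables used here held windows for only 2 of the 8 genes, with a pair of windows for RXRA. Each window lies inside the span given in this text for its gene, downstream of where that span begins.
CYP27A1 chr2:218781897-218782146: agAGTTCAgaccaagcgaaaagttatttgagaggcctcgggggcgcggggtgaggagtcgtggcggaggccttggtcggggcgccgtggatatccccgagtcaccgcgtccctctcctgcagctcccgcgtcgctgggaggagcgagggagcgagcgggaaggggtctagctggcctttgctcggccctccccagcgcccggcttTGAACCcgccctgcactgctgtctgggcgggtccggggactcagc
RXRA chr9:134326205-134326454: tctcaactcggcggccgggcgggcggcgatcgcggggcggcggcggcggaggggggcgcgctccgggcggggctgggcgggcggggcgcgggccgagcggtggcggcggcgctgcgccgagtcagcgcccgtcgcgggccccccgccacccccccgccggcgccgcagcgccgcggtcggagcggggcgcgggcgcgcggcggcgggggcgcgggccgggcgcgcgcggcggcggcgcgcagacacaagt
RXRA chr9:134379045-134379294: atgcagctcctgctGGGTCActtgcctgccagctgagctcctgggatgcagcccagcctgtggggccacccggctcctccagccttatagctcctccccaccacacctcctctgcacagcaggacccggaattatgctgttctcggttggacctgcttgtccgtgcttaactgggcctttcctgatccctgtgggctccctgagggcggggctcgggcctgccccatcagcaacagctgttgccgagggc
The CYP27A1 window held 2 such hexamers, AGTTCA at bases -248 to -243 on the plus strand and GGTTCA at -45 to -40 on the minus strand, counted from the start. The first RXRA window held 0 and the second 1, GGGTCA at -236 to -231. None held a direct repeat of them with a spacer of 3 bases, the classic arrangement for VDR with RXRA. Of 35116 windows of this length, 33.8% held at least 1 such hexamer and 0.0655% (23 windows) held the repeat, so these matches describe the letters only.

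GC (chromosome 4, 71741693 to 71804041, minus strand, GRCh38), the plasma carrier, was high in both SETDB1-hairpin fractions of Caco2 and near the counting floor elsewhere. It had 77.8, 81.0 and 81.4 CPM in KRT20-positive cells, 55.3, 49.4 and 54.5 CPM in KRT20-negative cells and 0.742, 0.160 and 0.948 CPM in medium, against 0.255, 0.279 and 0.635 CPM in vehicle. Medium and vehicle overlapped, at 6, 1 and 7 counts against 2, 2 and 4 counts, and did not pass (log2 0.74, SE 0.55, edgeR adjusted p = 0.414). Against vehicle GC rose by 7.65 on the log2 scale in KRT20-positive cells (SE 0.23, edgeR adjusted p = 5.77e-18) and by 7.03 in KRT20-negative cells (SE 0.24, edgeR adjusted p = 7.26e-17). Against medium the rises were 6.91 in KRT20-positive cells (SE 0.21, edgeR adjusted p = 6.71e-18) and 6.30 in KRT20-negative cells (SE 0.22, edgeR adjusted p = 7.52e-17). KRT20-positive cells exceeded KRT20-negative cells by 0.61 (SE 0.11, edgeR adjusted p = 0.00175), with no overlap. In all 18 HCT116 and SW480 libraries GC was listed at 0.

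GC lies 1.593 Mb from ALB and 1.627 Mb from AFP on the same chromosome, and the plasma protein genes that mark hepatocytes also rose in both SETDB1-hairpin fractions. All 8 hepatocyte markers (ALB, AFP, TTR, TF, FGA, FGB, AHSG and APOA2) rose against vehicle in KRT20-positive and in KRT20-negative cells (19.3% and 18.6% of all tested genes rose). In medium 1 rose and 5 fell (10.4% and 10.5%). Between fractions, where GC was higher in KRT20-positive cells, 0 of the 8 markers rose and 2 fell (2.30% and 1.78%), with a median log2 fold change of -0.26. Their summed level was 10700 to 11100 CPM in KRT20-positive cells, 10100 to 11100 CPM in KRT20-negative cells and 1170 to 1250 CPM in medium, against 1590 to 1710 CPM in vehicle. Fetal AFP averaged 6010 and 5090 CPM in the KRT20-positive and KRT20-negative fractions and 140 CPM in medium, against 419 CPM in vehicle. The share of these markers in the GC result was not tested, and in bulk RNA more cells of a type and more RNA per cell cannot be told apart.

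**Figure D2:**
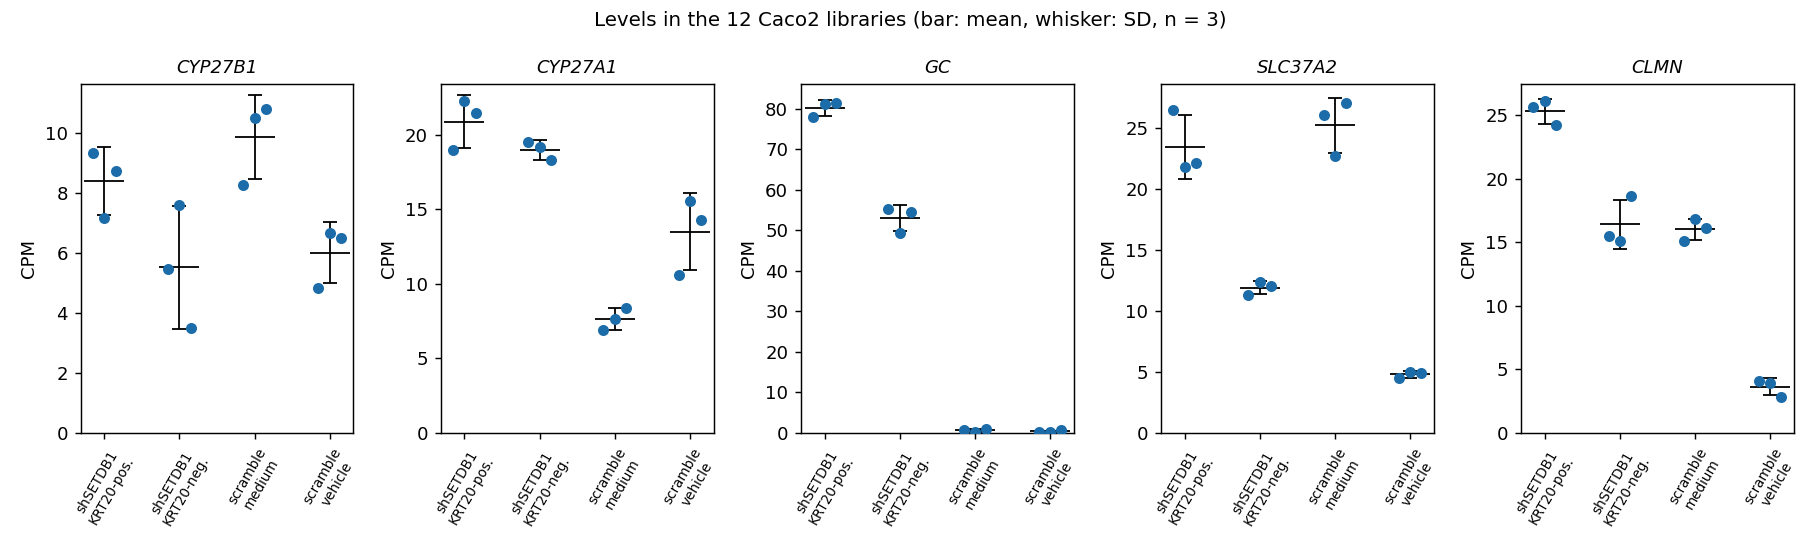
CYP27B1, CYP27A1, GC, SLC37A2 and CLMN in CPM in the 12 Caco2 libraries; points are libraries, bars means and whiskers SD (n = 3). GC is at 49.4 to 81.4 CPM in the SETDB1-hairpin fractions and below 1 CPM in medium and vehicle, SLC37A2 and CLMN are lowest in vehicle, and CYP27A1 is lowest in medium.

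VDR (chromosome 12, 47841537 to 47943048, minus strand, GRCh38), the hormone receptor, was lower in the SETDB1-hairpin fractions of Caco2. It had 17.2, 15 and 17.6 CPM in KRT20-positive cells, 15, 15.2 and 14.9 CPM in KRT20-negative cells and 26.6, 21.4 and 23.4 CPM in medium, against 29.9, 25.8 and 27.4 CPM in vehicle. The 6 SETDB1-hairpin libraries lay below the 6 scramble libraries. Against vehicle VDR fell by 0.76 on the log2 scale in KRT20-positive cells (SE 0.13, edgeR adjusted p = 7.64e-05) and by 0.93 in KRT20-negative cells (SE 0.13, edgeR adjusted p = 6.79e-06). Against medium it fell by 0.53 in KRT20-positive cells (SE 0.13, edgeR adjusted p = 0.00338) and by 0.70 in KRT20-negative cells (SE 0.13, edgeR adjusted p = 0.000233). All these VDR calls were lost in 1 fit of all 30 libraries (edgeR adjusted p of 0.361 or more). Medium itself overlapped vehicle and did not pass (log2 -0.23, SE 0.13, edgeR adjusted p = 0.226), nor did KRT20-positive against KRT20-negative cells (log2 0.16, SE 0.14, edgeR adjusted p = 0.614). CYP24A1 stood at 125 to 196 CPM in these fractions, which had the lowest mean VDR of all 10 groups.

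VDR was highest in SW480, and it was called in no HCT116 or SW480 comparison when each line was fitted alone. In HCT116 it had 13.7, 34.9 and 43.1 CPM in KRT-positive cells, 48.5, 45.4 and 49.5 CPM in KRT-negative cells and 18.6, 30.1 and 25.3 CPM in unsorted cells. The KRT-negative libraries lay above the 6 others, and KRT-negative over unsorted was not called (log2 0.96, SE 0.47, edgeR adjusted p = 0.301). In SW480 it had 67.4, 41.7 and 53.9 CPM in KRT-positive cells, 58.5, 81.7 and 60.2 CPM in KRT-negative cells and 92.3, 102 and 141 CPM in unsorted cells. All unsorted SW480 libraries lay above the 6 sorted libraries, with log2 fold changes of -1.02 in KRT-positive (SE 0.33, edgeR adjusted p = 0.124) and -0.77 in KRT-negative cells (SE 0.33, edgeR adjusted p = 0.336). In 1 fit of all 30 libraries the KRT-positive value was -1.04 and called (edgeR adjusted p = 0.0247). Without KRT-negative replicate 1 the KRT-negative value was -0.67 (edgeR adjusted p = 0.597). The order of VDR from low to high ran from the Caco2 KRT20-negative group, at 15.1 ± 0.183 CPM, to unsorted SW480 cells, at 112 ± 26.1 CPM (SD, n = 3 each). In that order only Caco2 medium, HCT116 KRT-negative and SW480 unsorted cells did not overlap the group below them.

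**Figure D3:**
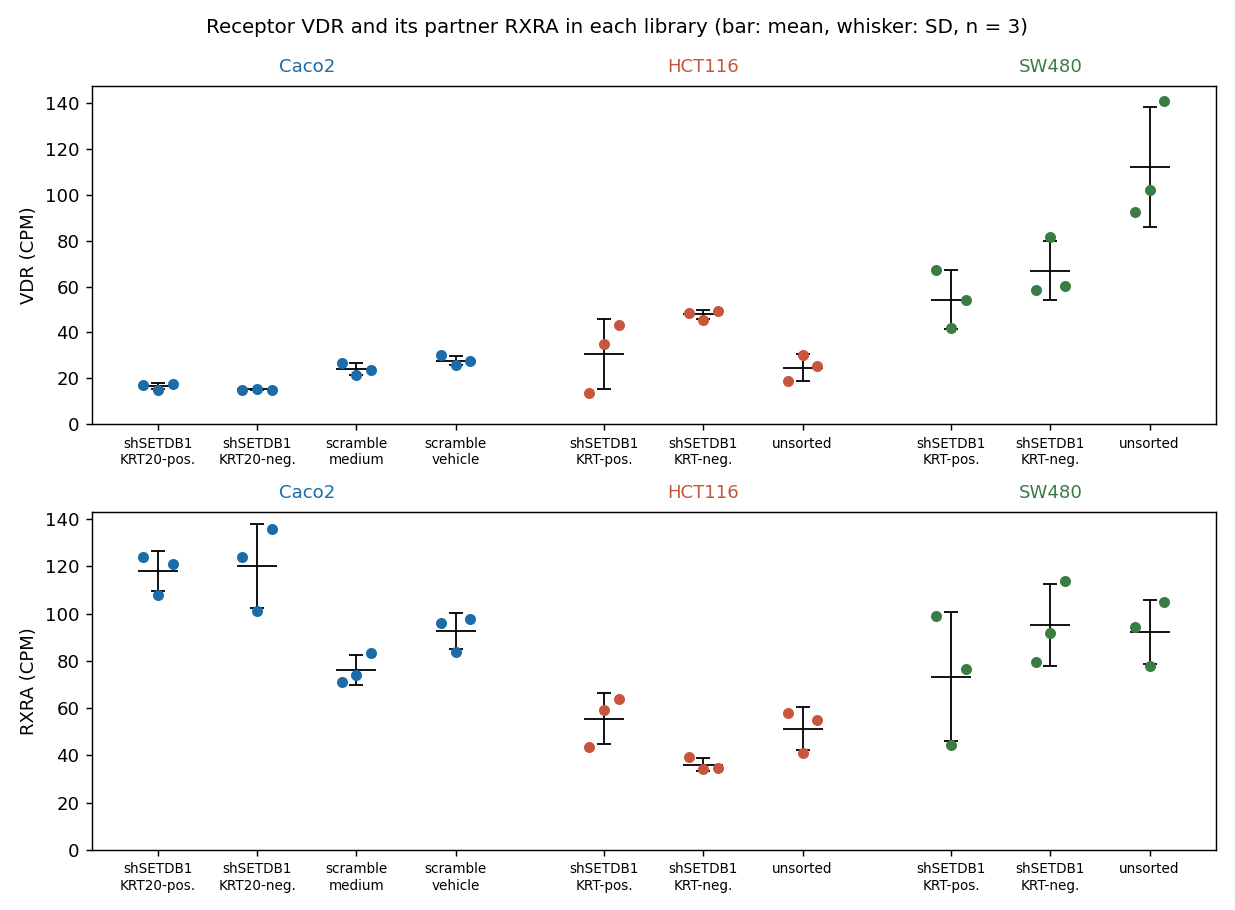
VDR (top) and RXRA (bottom) in CPM in each library, by group within cell line; points are libraries, bars means and whiskers SD (n = 3). Mean VDR is lowest in the Caco2 SETDB1-hairpin fractions, at 15.1 and 16.6 CPM, and highest in unsorted SW480 cells, the lowest single library being HCT116 KRT-positive replicate 1 at 13.7 CPM, while RXRA stays between 34.4 and 136 CPM.

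RXRA (chromosome 9, 134317098 to 134440585, plus strand, GRCh38) stayed within 34.4 to 136 CPM in all 30 libraries, a narrow range beside that of CYP24A1. In Caco2 it had 124, 108 and 121 CPM in KRT20-positive cells, 124, 101 and 136 CPM in KRT20-negative cells and 71.2, 73.9 and 83.2 CPM in medium, against 96.1, 83.8 and 97.9 CPM in vehicle. Both fractions lay above all vehicle libraries, and medium lay below them by a margin of under 1 CPM. Against vehicle it rose by 0.32 on the log2 scale in KRT20-positive cells (SE 0.10, edgeR adjusted p = 0.0151) and by 0.33 in KRT20-negative cells (SE 0.10, edgeR adjusted p = 0.0119), and fell by 0.30 in medium (SE 0.10, edgeR adjusted p = 0.0449). These small steps were not firm. The KRT20-positive call was lost without KRT20-positive replicate 1 (0.0709), vehicle replicate 2 (0.0894) or KRT20-positive replicate 3 (0.0593), and the KRT20-negative call without vehicle replicate 2 (0.0747) or KRT20-negative replicate 3 (0.0520). The medium call was lost in DESeq2 (0.0506) and without vehicle replicate 1 (0.145) or 3 (0.158) or medium replicate 1 (0.171) or 2 (0.119). Against medium the rises of 0.62 and 0.63 (SE 0.10 each, edgeR adjusted p = 5.00e-05 in KRT20-positive and 3.33e-05 in KRT20-negative cells) held without each library in turn. In HCT116 and SW480 RXRA had no call.

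SLC37A2 (chromosome 11, 125063067 to 125090312, plus strand, GRCh38) rose in all 3 Caco2 groups against vehicle and least in KRT20-negative cells. It had 26.4, 21.8 and 22.1 CPM in KRT20-positive cells, 11.3, 12.4 and 12 CPM in KRT20-negative cells and 26, 22.7 and 27.0 CPM in medium, against 4.47, 5.02 and 4.92 CPM in vehicle. KRT20-positive and medium libraries overlapped, and KRT20-negative libraries lay between them and vehicle. Against vehicle the rises were 2.26 on the log2 scale in KRT20-positive cells (SE 0.17, edgeR adjusted p = 1.48e-10), 1.26 in KRT20-negative cells (SE 0.17, edgeR adjusted p = 4.21e-06) and 2.38 in medium (SE 0.17, edgeR adjusted p = 2.61e-10). KRT20-negative cells fell below medium by 1.12 (SE 0.15, edgeR adjusted p = 1.78e-06), and KRT20-positive cells exceeded KRT20-negative cells by 1.00 (SE 0.15, edgeR adjusted p = 0.000115). SLC37A2 is also known from macrophages. Of 7 macrophage markers 3 were tested, too few to set against the shares of all genes. Against vehicle 2 rose in KRT20-positive cells, 1 in KRT20-negative cells and 0 in medium, where SLC37A2 was highest (19.3%, 18.6% and 10.4% of all genes rose). The summed level of the 7 markers was 106 to 111 CPM in KRT20-positive cells, 76.4 to 82.4 CPM in KRT20-negative cells and 79.0 to 84.4 CPM in medium, against 69.5 to 79.3 CPM in vehicle. Markers at 0 in a whole group were CD163 and PTPRC in KRT20-negative cells, MARCO in medium, and MARCO and PTPRC in vehicle. All 7 had counts in KRT20-positive cells. The marker CD14 is also in the list of VDR targets used below. The share of those markers in the SLC37A2 result was not tested. Outside Caco2 SLC37A2 was at most 7.26 CPM, in HCT116 KRT-negative replicate 2, and at or near 0 in SW480.

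CLMN (chromosome 14, 95181940 to 95319906, minus strand, GRCh38) followed another order, highest in KRT20-positive cells. It had 25.6, 26.1 and 24.2 CPM in KRT20-positive cells, 15.5, 15.1 and 18.6 CPM in KRT20-negative cells and 15.1, 16.8 and 16.1 CPM in medium, against 4.09, 3.90 and 2.86 CPM in vehicle. Against vehicle it rose by 2.76 on the log2 scale in KRT20-positive cells (SE 0.18, edgeR adjusted p = 1.17e-11), by 2.12 in KRT20-negative cells (SE 0.18, edgeR adjusted p = 2.50e-09) and by 2.11 in medium (SE 0.18, edgeR adjusted p = 1.03e-08). KRT20-positive cells exceeded medium by 0.65 (SE 0.15, edgeR adjusted p = 0.00130) and KRT20-negative cells by 0.64 (SE 0.15, edgeR adjusted p = 0.0106). The call between fractions was lost without KRT20-positive replicate 1 (0.0542). KRT20-negative cells overlapped medium and did not pass (edgeR adjusted p = 0.970). In HCT116 CLMN reached 40.6 CPM and in SW480 21.6 CPM, with no call and wide spread, as in the 0.996, 36.6 and 40.6 CPM of the HCT116 KRT-positive libraries.

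**Figure D4:**
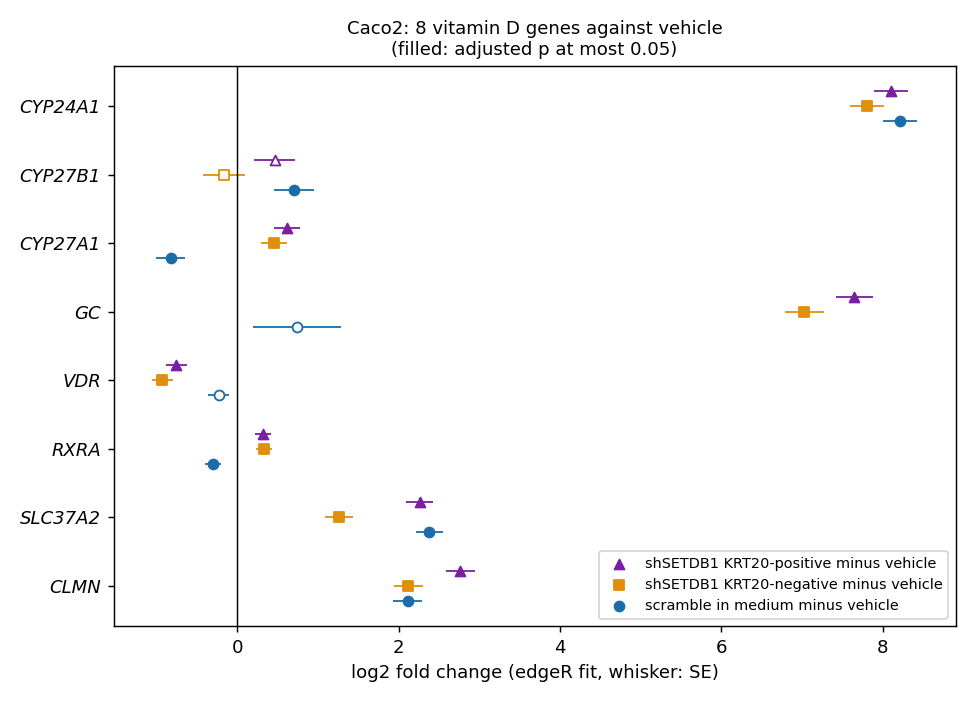
Fitted log2 fold changes of the 8 genes against vehicle in Caco2, with SE as whiskers, for KRT20-positive and KRT20-negative SETDB1-hairpin cells and for scramble cells in medium; filled marks have an edgeR adjusted p of at most 0.05. CYP24A1 lies near 8 in all 3, GC only in the SETDB1-hairpin fractions, and CYP27A1 and RXRA are on opposite sides of 0 in the fractions and in medium.

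Counted together in Caco2, 6 of the 8 genes were called higher and 1 lower in KRT20-positive cells against vehicle, where 19.3% of all tested genes were called higher and 18.4% lower, 37.7% in all. In KRT20-negative cells 6 were higher and 1 lower (18.6% and 17.6% of all tested genes, 36.2% in all), and in medium 4 were higher and 2 lower (10.4% and 10.5%, 20.9% in all). Against medium, 4 were higher and 1 lower in KRT20-positive cells (18.0% and 16.6%, 34.5% in all) and 3 higher and 4 lower in KRT20-negative cells (19.6% and 18.4%, 38.0% in all). KRT20-positive over KRT20-negative gave 3 higher, GC, SLC37A2 and CLMN, and 0 lower (2.30% and 1.78%, 4.08% in all). In HCT116, 6 of the 8 were tested and CYP24A1 was the single call. It was higher in KRT-positive against unsorted cells (4.26% of tested genes called higher and 5.02% lower, 9.28% in all) and in KRT-negative against unsorted cells (2.82% and 2.44%, 5.26% in all), and lower in KRT-positive against KRT-negative cells (0.166% and 0.384%, 0.550% in all). In SW480, 6 were tested and CYP24A1 was again the single call, higher in KRT-negative against unsorted cells (1.36% and 0.762%, 2.12% in all) and lower in KRT-positive against KRT-negative cells (0.226% and 0.219%, 0.445% in all). The shares between fractions rest on few genes: 73 in HCT116, or 15 to 130 with a library left out and 405 in DESeq2, and 59 in SW480, or 7 to 98 and 404. In SW480 KRT-positive against unsorted cells edgeR called 0 of 6 (1.90% and 1.57%, 3.47% in all), VDR alone had an unadjusted p under 0.05, and DESeq2 called 0. GC was too low to test in either line, CYP27A1 in HCT116 and SLC37A2 in SW480.

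Of 33 other genes known as VDR targets, 23 were tested in Caco2. In KRT20-positive cells 15 rose and 1 fell against vehicle, where 19.3% of all tested genes rose and 18.4% fell, with a median log2 fold change of 0.43 against 0.01 over all genes. In KRT20-negative cells 14 rose and 1 fell (18.6% and 17.6% of all genes, median 0.42 against 0.01), and in medium 11 rose and 1 fell (10.4% and 10.5%, median 0.36 against 0.00). The calcium channel TRPV6, the classic vitamin D-dependent channel of the gut, had 4.13, 5.5 and 6.24 CPM in KRT20-negative cells and 0.742, 1.92 and 0.813 CPM in medium, against 0 in all 3 vehicle libraries. Taking 3 counts over the vehicle group as the floor, it was at least 38.8-fold higher in KRT20-negative cells and at least 8.49-fold higher in medium. TRPV6 stood above medium in KRT20-positive cells too. The fit of the line called TRPV6 higher than medium in both fractions. Those calls were lost in 1 fit of all 30 libraries. There its log2 fold change against medium was 2.22 in KRT20-positive and 2.2 in KRT20-negative cells (edgeR adjusted p = 0.118 each). CLDN2, a tight junction protein that passes cations, averaged 73.8 CPM in KRT20-positive cells, 49.9 CPM in KRT20-negative cells and 122 CPM in medium, against 15.4 CPM in vehicle. It was lower than medium in both fractions, by 0.74 (SE 0.09, edgeR adjusted p = 9.64e-07) and by 1.33 (SE 0.09, edgeR adjusted p = 8.86e-11) on the log2 scale. TXNIP, an inhibitor of thioredoxin, and SLC30A10, a manganese exporter, went the other way. TXNIP averaged 157 CPM in KRT20-positive, 105 CPM in KRT20-negative cells and 57.0 CPM in medium, against 35.5 CPM in vehicle, and SLC30A10 16.7, 14.2 and 3.50 CPM in those groups, against 2.04 CPM in vehicle. DKK1, a secreted Wnt inhibitor that the hormone induces in some colon cancer cells, was the gene of the list that fell, to 29.2 CPM in KRT20-positive cells, 31.3 CPM in KRT20-negative cells and 89.3 CPM in medium, against 236 CPM in vehicle.

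**Figure D5:**
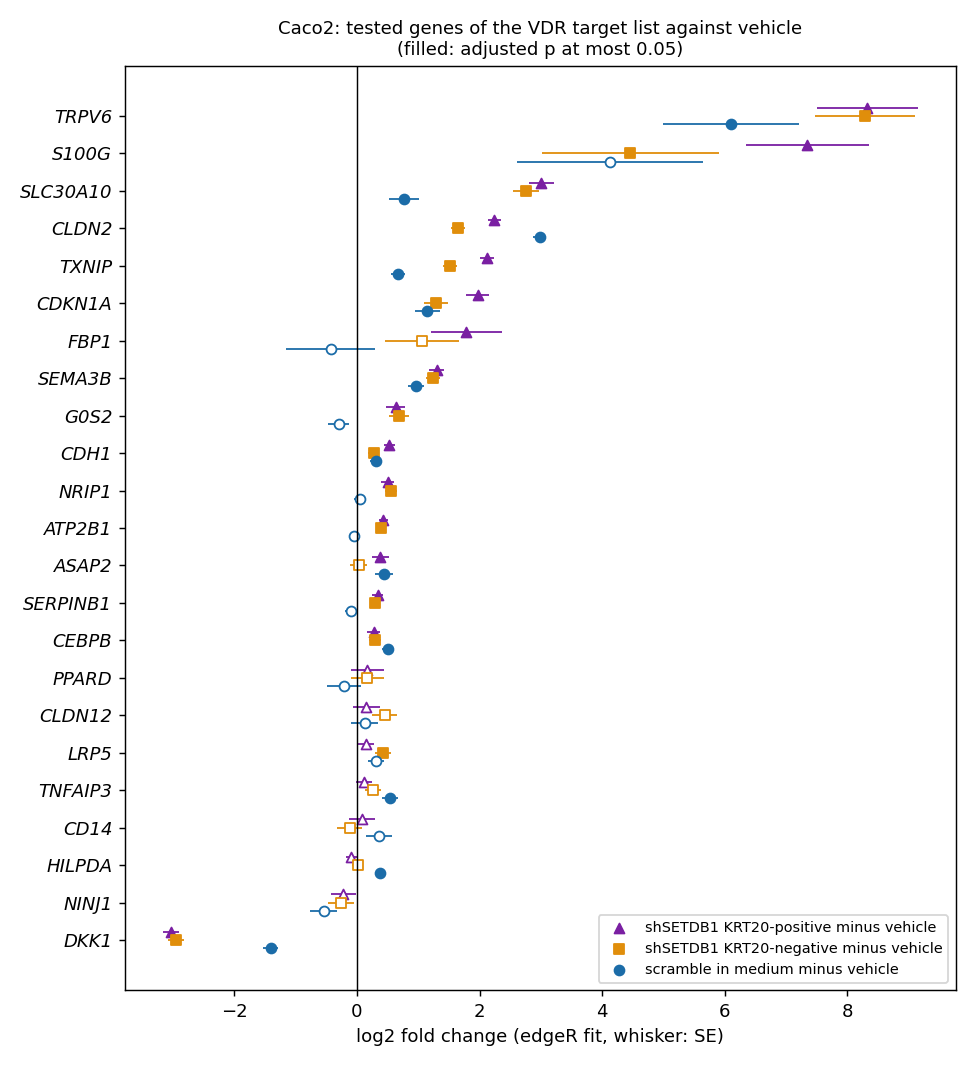
Fitted log2 fold changes of the 23 tested genes of the VDR target list against vehicle in Caco2, with SE as whiskers; filled marks have an edgeR adjusted p of at most 0.05. DKK1 lies left of 0 in all 3 comparisons; TRPV6 and S100G had no counts in vehicle, so the place of their marks depends on the prior count of the fit.

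Between fractions, KRT20-positive over KRT20-negative, 4 of the 23 VDR targets rose and 0 fell (2.30% and 1.78% of all genes, median 0.04 against 0.00): CLDN2, TXNIP, CDKN1A, an inhibitor of the cell cycle, and S100G, a calcium-binding protein of the gut. The CDKN1A call was lost without KRT20-negative replicate 1 (edgeR adjusted p = 0.0574) or 2 (0.0896) or any of the 3 KRT20-positive libraries (0.0605 to 0.101). Against medium 11 rose and 4 fell in KRT20-positive cells (18.0% and 16.6% of all genes, median 0.33 against 0.01) and 7 rose and 4 fell in KRT20-negative cells (19.6% and 18.4%, median 0.28 against 0.02).

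In HCT116, 18 of the 33 were tested. In KRT-positive cells 7 rose and 1 fell against unsorted (4.26% and 5.02% of all genes, median 1.05 against 0.07), and in KRT-negative cells 7 rose and 2 fell (2.82% and 2.44%, median 1.01 against 0.04). TRPV6 had 8.76, 5.5 and 7.58 CPM in KRT-positive cells and 48.6, 71.5 and 65.1 CPM in KRT-negative cells, against 0, 0.267 and 0.994 CPM in unsorted cells. The groups did not overlap, in the order seen for CYP24A1, but the step between fractions missed the threshold (log2 -3.08, edgeR adjusted p = 0.0553). The TRPV6 call in KRT-positive against unsorted cells was lost in a fit of only those groups (edgeR adjusted p = 0.226). CDH1, the epithelial adhesion protein E-cadherin, averaged 451 and 497 CPM in KRT-positive and KRT-negative cells against 57.7 CPM in unsorted cells. DKK1 averaged 39.8 and 44.3 CPM against 416 CPM in unsorted cells. Between HCT116 fractions 0 of 18 passed in edgeR (0.550% of all genes called), where 7 had an unadjusted p under 0.05, and DESeq2 called 5. In SW480, 23 were tested and 3 rose and 0 fell in each fraction against unsorted, where 1.90% of all genes rose and 1.57% fell in KRT-positive and 1.36% and 0.762% in KRT-negative cells (medians -0.15 in KRT-positive cells, or -0.02 with genes at 0 counts set at their bounds, and 0.18 in KRT-negative cells, against 0.03 and 0.01 over all genes). DKK1 did not fall there, at means of 17.7 CPM in KRT-positive and 42.9 CPM in KRT-negative cells against 2.99 CPM in unsorted cells, and was not called. TXNIP averaged 210 CPM in KRT-positive and 266 CPM in KRT-negative cells against 37.0 CPM in unsorted cells. KLK6, a secreted protease, averaged 399 CPM in KRT-positive against 1080 CPM in KRT-negative cells, and CDH1 263 against 116 CPM, the 1 lower and the 1 higher call of the list between SW480 fractions (0.219% of all genes lower and 0.226% higher). The KLK6 call was lost without KRT-negative replicate 3 (edgeR adjusted p = 0.0629), and the CDH1 call without any of the 3 KRT-negative libraries (0.148 to 0.174) or KRT-positive replicate 1 (0.105) or 3 (0.0882). Without KRT-negative replicate 1, TXNIP in KRT-negative against unsorted cells was at a log2 fold change of 2.81 (edgeR adjusted p = 0.00135) and KLK6 between fractions at -1.29 (edgeR adjusted p = 0.0491).

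Among 11 other genes of vitamin D metabolism and uptake, 9 were tested in Caco2. Against vehicle 4 rose and 2 fell in KRT20-positive cells, 4 rose and 2 fell in KRT20-negative cells, and 1 rose and 2 fell in medium, with medians of 0.41, 0.19 and 0.06 against 0.01, 0.01 and 0.00 over all genes. Over all genes 19.3% rose and 18.4% fell in KRT20-positive cells, 18.6% and 17.6% in KRT20-negative cells and 10.4% and 10.5% in medium. The shares that fell in the fractions, and the share that rose in medium, were therefore close to the background. In medium the share that fell, 2 of 9, was above the 10.5% over all genes. LRP2 (megalin), the uptake receptor for the GC carrier, had 73.5, 66.7 and 69.2 CPM in KRT20-positive cells, 97.4, 83.8 and 86.2 CPM in KRT20-negative cells and 182, 158 and 181 CPM in medium, against 345, 350 and 369 CPM in vehicle. No pair of these groups overlapped. LRP2 fell by 2.37 on the log2 scale in KRT20-positive cells (SE 0.09, edgeR adjusted p = 1.95e-16), by 2.04 in KRT20-negative cells (SE 0.08, edgeR adjusted p = 3.03e-15) and by 1.04 in medium (SE 0.08, edgeR adjusted p = 1.56e-09). It was lowest in the cells where GC was highest. AMN, which anchors the cubilin uptake complex, rose by 0.85 on the log2 scale in KRT20-positive cells (SE 0.18, edgeR adjusted p = 0.000533) and by 1.02 in KRT20-negative cells (SE 0.18, edgeR adjusted p = 7e-05). DHCR7, which consumes the precursor of vitamin D to make cholesterol, fell in all 3 groups, to means of 101 CPM in KRT20-positive cells, 113 CPM in KRT20-negative cells and 131 CPM in medium, against 201 CPM in vehicle. CYP3A4, another VDR-responsive enzyme that breaks down vitamin D, averaged 2.48 CPM in KRT20-positive cells and 0.634 CPM in KRT20-negative cells against 0.0529 CPM, a single count, in vehicle. Its KRT20-negative call was lost without KRT20-negative replicate 1 (edgeR adjusted p = 0.0507) or 2 (0.0697) or vehicle replicate 1 (0.120) or 2 (0.104). Against medium 5 rose and 2 fell in KRT20-positive cells (18.0% and 16.6% of all genes) and 3 rose and 2 fell in KRT20-negative cells (19.6% and 18.4%). Between fractions FDX1, an electron donor to mitochondrial P450 enzymes, rose and LRP2 fell (2.30% and 1.78% of all genes). The LRP2 call between fractions was lost without KRT20-negative replicate 1 (edgeR adjusted p = 0.112), KRT20-positive replicate 2 (0.122) or KRT20-positive replicate 3 (0.113), and in a fit of only those groups (0.114). In HCT116 0 of 7 were called by edgeR in any comparison (of all genes, 9.28% in KRT-positive and 5.26% in KRT-negative against unsorted cells, and 0.550% between fractions). KRT-negative against unsorted cells had 2 with an unadjusted p under 0.05, both called by DESeq2, and the other HCT116 comparisons had 0 by either measure. In SW480 POR, the electron donor to microsomal P450 enzymes, rose in both fractions against unsorted, at means of 354 CPM in KRT-positive and 554 CPM in KRT-negative cells against 158 CPM, and was the single edgeR call among 8 tested (1.90% of all genes rose in KRT-positive and 1.36% in KRT-negative cells). Without KRT-negative replicate 1 its KRT-negative value was 1.84 on the log2 scale (edgeR adjusted p = 0.00269). Between SW480 fractions 0 were called (0.445% of all genes), 4 had an unadjusted p under 0.05 and DESeq2 called 1.

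Of 13 partners and coregulators of VDR, 12 were tested in each line. In Caco2 1 rose and 3 fell in KRT20-positive cells against vehicle, 1 rose and 4 fell in KRT20-negative cells, and 0 rose and 5 fell in medium, with medians of -0.12, -0.19 and -0.18, against 0.01, 0.01 and 0.00 over all genes. The share that fell in KRT20-positive cells is near the 18.4% over all genes, and the share that rose there is below the 19.3% over all genes. In KRT20-negative cells 18.6% of all genes rose and 17.6% fell, and in medium 10.4% and 10.5%. RXRB, another partner of VDR, rose to 36.3 CPM in KRT20-positive and 37.5 CPM in KRT20-negative cells, against 21.7 CPM in vehicle. BAZ1B, a subunit of a chromatin complex that binds VDR, fell to 268, 280 and 292 CPM in KRT20-positive cells, KRT20-negative cells and medium, against 412 CPM in vehicle. The histone acetylase gene EP300 fell in KRT20-positive cells and in medium. Against medium 3 rose and 1 fell in each fraction (18.0% and 16.6% of all genes in KRT20-positive and 19.6% and 18.4% in KRT20-negative cells). Between fractions 0 were called (4.08% of all genes), with 0 at an unadjusted p under 0.05 and 0 in DESeq2. The coactivator NCOA3 was the single edgeR call of the list outside Caco2. It averaged 170 CPM in HCT116 KRT-positive against 56.6 CPM in unsorted HCT116 cells, and 155 and 181 CPM in SW480 KRT-positive and KRT-negative cells against 61.5 CPM in unsorted SW480 cells. In those 3 comparisons 4.26%, 1.90% and 1.36% of all genes rose. Each of the 3 calls depended on single libraries: the HCT116 call was lost without KRT-positive replicate 1 (edgeR adjusted p = 0.0610), the SW480 KRT-negative call without KRT-negative replicate 3 (0.0555) or unsorted replicate 3 (0.0553), and the SW480 KRT-positive call without unsorted replicate 1 (0.0556) or 3 (0.0790). Without KRT-negative replicate 1 the SW480 KRT-negative value was 1.5 (log2, edgeR adjusted p = 0.0414). The comparisons with 0 edgeR calls had 3 genes at an unadjusted p under 0.05 in HCT116 KRT-negative against unsorted, 1 between HCT116 fractions and 1 between SW480 fractions, of which DESeq2 called 0, 1 and 0. There edgeR called 5.26%, 0.550% and 0.445% of all genes.

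Genes whose log2 level ran most like CYP24A1 over the 12 Caco2 libraries were SAA2 (Pearson r 0.990), CXCL1 (0.984), CEBPD (0.980), SAA1 (0.978) and PDE9A (0.975). Most like VDR were CENPN (0.978), CCND2 and HMMR (0.976 each), SPAG9 (0.974) and CENPE (0.973). Among those most like GC were AKR1C3 and AIG1 (0.992 each), XDH (0.990) and TTR (0.989). The libraries fall into 4 groups that set these values, each gene was picked from 13967 others, and they are a description with no test.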

How the data were processed

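Total RNA of 30 samples was made into QuantSeq libraries, per the labels' protocols. The authors deposited raw read counts per gene symbol, 1 table of 25737 lines a library, and Bowtie2, edgeR and hg19 are named per the submitters' processing notes, with versions and strand handling not given in the sources used here. Lines with the same symbol were summed (1561 lines of 286 symbols, none of them among the 8 genes), which left 24462 symbols. Each line was fitted with all its groups in edgeR 4.0.16 (R 4.3.3): low-count filter filterByExpr, TMM scaling, robust quasi-likelihood test, Benjamini-Hochberg adjustment over all genes tested, called at 0.05. The fits tested 13968 genes in Caco2, 13279 in HCT116 and 13252 in SW480. Levels are CPM with TMM factors over all 30 libraries. Standard errors were derived from the fold change and its F statistic. Steps between lines came from 1 fit of the lines compared. The scripts were tested on simulated data. The alternatives tried were DESeq2 1.42.0, RLE scaling, scaling by totals, no filter, the replicate number as a block, only the groups compared, 1 fit of all 30 libraries and each library left out. The term for library class and the steps between lines were added after seeing the data. The 8 genes and all lists were chosen with earlier results of these data known, the lists from general knowledge. All 8 genes are named in each comparison, and a list's genes are named only from its 6 smallest adjusted p-values in that comparison. Some genes that the naming rule covers are not reported here. Gene positions are from GENCODE on GRCh38 and promoter windows from RefSeq on GRCh38.p14, both for annotation only.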

Additional observations from a re-analysis of the deposited data

Results flagged for a closer look

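The step of CYP24A1 between groups differed between cell lines in 4 of the 5 interactions tested in edgeR. KRT-positive minus KRT-negative was 2.18 higher on the log2 scale in Caco2 than in HCT116, and 3.24 higher in Caco2 than in SW480. HCT116 exceeded SW480 by 3.29 in KRT-positive minus unsorted and by 2.22 in KRT-negative minus unsorted. With each library left out in turn these values lay between 2.03 and 2.39, between 3.10 and 3.47, between 2.81 and 3.55 and between 1.72 and 2.49, and the last of them was lost without HCT116 unsorted replicate 1, SW480 KRT-negative replicate 3 or SW480 unsorted replicate 2. Replicates also spread more in HCT116 and SW480 than in Caco2, and KRT20 was too low to test in HCT116, where the labels name the sort only as KRT. The part of either in these results was not tested.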

How the results depend on the processing

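Of the log2 fold changes of the 8 genes and listed genes, 1209 were alike in direction and call under the alternatives other than leaving out a library, 120 lost their call, 3 gained one and 12 changed sign; the cause was not tested. In 1 fit of all 30 libraries, which gives Caco2 the spread of the other lines, calls among the 8 genes fell to 1 in medium against vehicle, 2 in KRT20-negative and 2 in KRT20-positive cells against vehicle, 1 in each fraction against medium and 0 between fractions, and in SW480 they were 2 in KRT-negative cells (CYP24A1 and CYP27A1) and 1 in KRT-positive cells (VDR) against unsorted. Listed pathway genes called there were 2, 4, 5, 0, 0 and 0 in Caco2 in that order, 18 in KRT-positive and 15 in KRT-negative HCT116 cells against unsorted, 8 between HCT116 fractions, and 13, 9 and 11 in SW480. Calls over all genes also fell in Caco2 and rose in HCT116 and SW480 in that fit. In the same order they went from 2925, 5056, 5265, 5312, 4820 and 570 to 35, 115, 168, 88, 85 and 1 in Caco2. They went from 1232, 698 and 73 to 2384, 1565 and 600 in HCT116, and from 460, 281 and 59 to 2412, 1446 and 1346 in SW480. Between HCT116 fractions pathway calls were 4 with no filter, 6 in DESeq2, 4 with only the groups compared and 1 in libraries leaning to AT-rich transcripts, beside 189, 405, 126 and 46 over all genes. In SW480 KRT-negative against unsorted, 2 of the 8 genes were called in DESeq2 and 2 with only the groups compared, beside 709 and 432 over all genes. SW480 pathway calls were 8 in DESeq2 for KRT-positive against unsorted, and between fractions 6 in DESeq2, 1 with only the groups compared and 1 in libraries leaning to GC-rich transcripts. Over all genes these fits called 1204, 404, 18 and 24.

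Signs changed only in values that passed no test. CLMN in KRT20-negative cells against medium was -0.0018 with RLE, -0.0031 with no filter and -0.0009 in DESeq2, and RXRA between Caco2 fractions 0.01 with library totals. SLC37A2 between HCT116 fractions was 1.92 with library class as a term and 0.89 in AT-leaning libraries. RXRA in SW480 KRT-negative against unsorted was -0.0014 with RLE and in DESeq2, -0.03 with totals and -0.08 in GC-leaning libraries. In those libraries CYP24A1 in SW480 KRT-positive against unsorted was 0.29 and VDR between fractions 0.10.

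With each library left out, calls among the 8 genes ranged from 2 to 5 between Caco2 fractions and from 0 to 1 between HCT116 fractions, and pathway calls from 0 to 2 between HCT116 fractions, 3 to 5 in SW480 KRT-negative against unsorted and 0 to 3 between SW480 fractions. Sign changes then were CYP27B1 in KRT20-negative against vehicle (-0.47 to 0.08), CLMN in KRT20-negative against medium (-0.09 to 0.06), RXRA between Caco2 fractions (-0.12 to 0.08), VDR (-0.02 to 0.66) and RXRA (-0.03 to 0.26) in HCT116 KRT-positive against unsorted, CLMN between HCT116 fractions (-0.87 to 0.17), RXRA in SW480 KRT-negative (-0.13 to 0.14) and CYP24A1 in SW480 KRT-positive against unsorted (-0.54 to 0.21). The step of CYP24A1 in HCT116 minus SW480, KRT-negative minus unsorted, was 1.72 to 2.49. Library totals moved the median of all genes to 0.291 in HCT116 KRT-positive against unsorted and to 0.212 between HCT116 fractions.

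Replicate numbers were not taken to pair the samples, since not every same-numbered pair had a correlation over 0.1: same-numbered deviations had correlations of 0.001 to 0.092 (Caco2), -0.023 to 0.074 (HCT116) and 0.007 to 0.115 (SW480), while 12 of 12 Caco2, 3 of 9 HCT116 and 7 of 9 SW480 libraries correlated best with their own number, a hint of weak pairing from the data and not from the design. With the replicate block, CYP24A1 between Caco2 fractions was 0.31 and called (edgeR adjusted p = 0.0340), and SW480 calls over all genes were 793 in KRT-positive and 461 in KRT-negative cells against unsorted and 179 between fractions, against 460, 281 and 59 without it.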
